A study of Mus musculus with 4 samples.

Results

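The 10 genes of the unfolded protein response described here were followed on the 4 arrays of this study, chosen by gene symbol from the 19505 genes that carry one. They were Stc2, Xbp1, Atf4, Atf6, Ddit3, Ern1, Eif2ak3, Ppp1r15a, Herpud1 and Sdf2l1, and all 10 were measured. For a symbol with more than 1 transcript cluster (the array's unit of measurement for a gene) the one with the highest mean was taken, which applied to Ddit3 alone, with means of 9.30 and 8.69 on the log2 scale. The list was drawn up with earlier results of the same TCQA against water contrast known, so the differences of its members are a description and carry no test. The RNA came from brain cortex of male SAMR1 mice, a strain bred as the normally ageing counterpart of senescence-prone lines, kept in single cages for 4 months from 7 months of age. The 2 groups had 2 arrays each. From 11 months of age the TCQA group was given TCQA, a caffeoylquinic acid from plants, by mouth at 5 mg/kg each day for 1 month, and the water group was given MilliQ water. Whether an array held RNA of 1 mouse or of several is not stated, so the spread between arrays of a group may be technical.

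The unfolded protein response is the reaction of a cell to misfolded protein in the endoplasmic reticulum (ER). Its sensors are Ern1 (IRE1, a kinase and nuclease that splices Xbp1 mRNA), Eif2ak3 (PERK, a kinase that phosphorylates eIF2 and thereby favours translation of Atf4) and Atf6 (a membrane-bound factor released by proteolysis), and they drive genes of protein folding, degradation and amino acid supply. Stc2 encodes stanniocalcin 2, a secreted glycoprotein known as a target of the PERK and ATF4 arm and as an inhibitor of the protease PAPP-A. Much of this signalling runs through splicing, phosphorylation and cleavage, which 1 signal per transcript cluster does not record.

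Promoter sequences are shown first, because target genes of the response carry recognisable elements close to their start. Of the 10 genes 9 had an entry in the RefSeq promoter table (GRCm38.p6), and Atf6 did not. The 250 bases before the start, written 5′ to 3′ on the strand of the gene, are given for Stc2 and Sdf2l1, the members with the largest differences, for Herpud1, the member with the most elements, and for Hspa5 and Asns, reference targets of the ATF6 and ATF4 arms that are described further on. Capitals mark every match, on either strand, to the ER stress elements ERSE (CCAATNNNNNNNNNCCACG) and ERSE-II (ATTGGNCCACG), to the XBP1-binding UPRE core (TGACGTGG), to the core of the C/EBP-ATF response element (TGATGNAA) and to the CCACG box alone, which is also part of both ERSE forms and, read on the other strand, of the UPRE core.
Stc2, chr11:31370062-31370311, minus strand: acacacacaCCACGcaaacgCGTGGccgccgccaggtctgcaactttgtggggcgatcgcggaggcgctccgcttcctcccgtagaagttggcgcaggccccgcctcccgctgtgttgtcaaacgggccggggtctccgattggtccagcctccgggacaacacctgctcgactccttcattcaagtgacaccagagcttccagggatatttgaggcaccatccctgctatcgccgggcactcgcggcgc
Sdf2l1, chr16:17132384-17132633, minus strand: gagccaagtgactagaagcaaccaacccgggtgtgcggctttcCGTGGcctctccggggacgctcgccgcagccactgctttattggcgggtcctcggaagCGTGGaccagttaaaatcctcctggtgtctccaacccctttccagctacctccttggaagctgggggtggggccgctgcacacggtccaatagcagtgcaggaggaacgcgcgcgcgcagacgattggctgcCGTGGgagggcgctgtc
Herpud1, chr8:94386179-94386428, plus strand: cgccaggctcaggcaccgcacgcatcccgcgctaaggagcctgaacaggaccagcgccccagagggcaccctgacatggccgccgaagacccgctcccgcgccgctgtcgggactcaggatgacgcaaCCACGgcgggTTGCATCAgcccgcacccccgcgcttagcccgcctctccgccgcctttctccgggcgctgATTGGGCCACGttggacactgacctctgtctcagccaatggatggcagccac
Hspa5, chr2:34771840-34772089, plus strand: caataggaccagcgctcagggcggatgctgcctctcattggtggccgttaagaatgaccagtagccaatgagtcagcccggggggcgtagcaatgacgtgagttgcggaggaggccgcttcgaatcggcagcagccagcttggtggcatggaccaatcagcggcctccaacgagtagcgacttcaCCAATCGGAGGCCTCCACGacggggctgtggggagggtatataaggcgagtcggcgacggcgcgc
Asns, chr6:7693210-7693459, minus strand: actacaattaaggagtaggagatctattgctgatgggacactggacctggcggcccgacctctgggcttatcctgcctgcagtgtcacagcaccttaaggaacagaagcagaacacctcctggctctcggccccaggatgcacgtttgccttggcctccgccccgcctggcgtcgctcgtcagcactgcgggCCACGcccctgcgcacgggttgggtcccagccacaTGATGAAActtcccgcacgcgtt

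Herpud1 held an ERSE-II at bases 52 to 42 before its start (counted back from 1) and a C/EBP-ATF core at bases 112 to 105. In the Stc2 window there were 2 CCACG boxes, at bases 241 to 237 and 230 to 226, and none of the longer elements. Sdf2l1 had 3 CCACG boxes, at bases 207 to 203, 149 to 145 and 17 to 13, all on the opposite strand and without the CCAAT spacing of an ERSE. Hspa5 held an ERSE at bases 65 to 47, and Asns a C/EBP-ATF core at bases 23 to 16. Of the 32851 promoter windows of this length in the table, 0.113% held an ERSE, 0.0304% an ERSE-II, 0.563% a UPRE core, 3.45% a C/EBP-ATF core and 28.3% a CCACG box. Among the 9 members with a window, 5 had a CCACG box (Stc2, Sdf2l1, Herpud1, Atf4 and Ern1), 1 an ERSE-II and 0 an ERSE. Such counts are of genes, with a match in any window of the symbol, whereas the shares above are of windows. A match is a match of letters only.

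Across the 10 genes the largest difference was that of Stc2, which was 2.25-fold higher in TCQA. Sdf2l1 was 1.51-fold lower, and the other 8 genes differed by less than 0.4 on the log2 scale. The list was split evenly, with 5 genes higher and 5 lower and a median difference of 0.0044, against 0.0028 over all 19572 transcript clusters. The sensors and transcription factors of the pathway did not shift in 1 direction. Without Stc2, the 9 remaining differences ran from -0.60 to 0.33 with a median of -0.0014.

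Signals must be read against the array's background. The 5222 negative control probe sets had a median of 6.97 and a 95th percentile of 10.99 on the log2 scale. Among the members, 4 (Atf6, Xbp1, Herpud1 and Atf4) had 4-array means above that percentile. Another 3 (Stc2, Sdf2l1 and Ppp1r15a) lay below the negative control median, so the sizes of their folds are uncertain. Of all 19505 genes with a symbol, 9675 lay below that median as well. Levels of different genes are not compared, because probe sets differ in how brightly they bind.

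**Figure D1:**
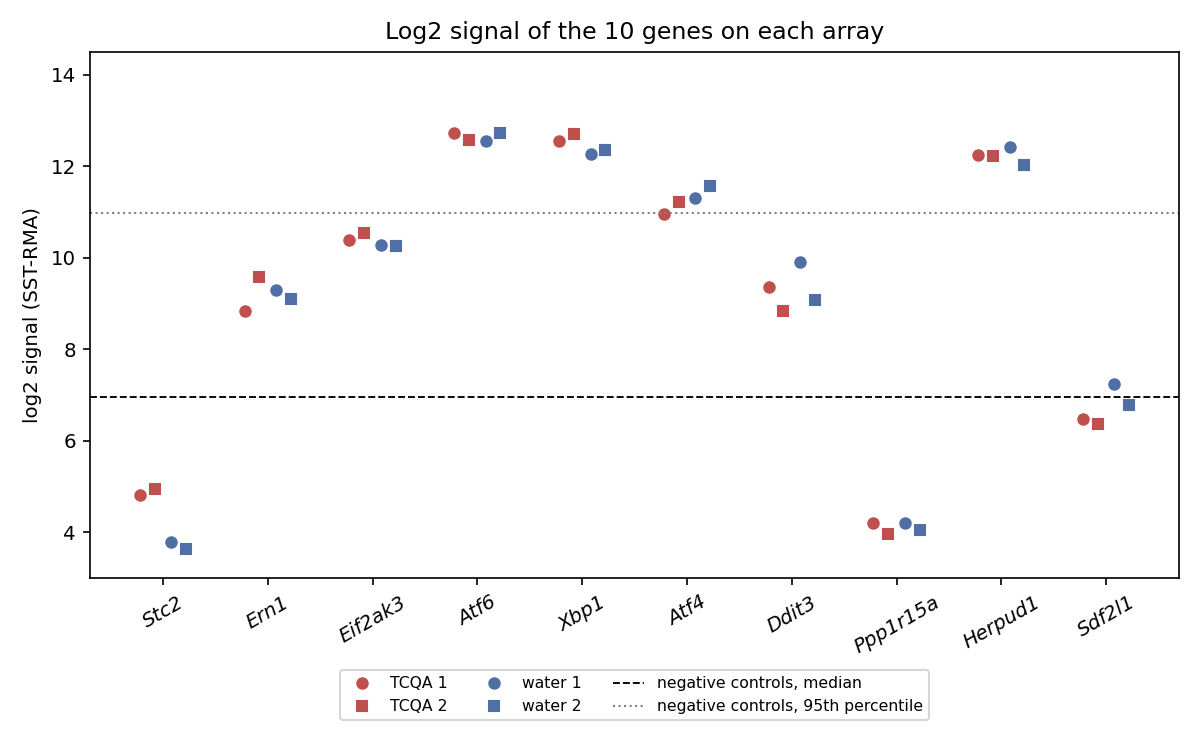
Log2 signal (y axis) of the 10 genes (x axis) on TCQA 1, TCQA 2, water 1 and water 2, each point 1 array, with the median (dashed, 6.97) and the 95th percentile (dotted, 10.99) of the negative control probe sets. For Stc2 both red TCQA points stand above both blue water points, and all 4 lie below the dashed line.

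The samples themselves differed in tissue markers, on lists of 12 cell types and regions. Markers of excitatory cortical neurons were well detected, with a list mean of 12.18 on water 1 and of 12.92 to 13.01 on the other arrays, 1 of 9 markers (Emx1) below the negative control median, and Slc17a7, the glutamate transporter of these neurons, between 15.98 and 16.34. TCQA 2 stood apart in its olfactory bulb markers, with a list mean of 8.54 against 5.70 to 6.33 on the other arrays. Water 1 stood apart in striatal markers, with 14.42 against 12.79 to 13.39, and in myelin markers, with 12.50 against 11.86 to 11.88. For choroid plexus and ependyma, 8 of 9 markers had lower means in TCQA, with list means of at most 7.66 in TCQA and of at least 8.35 in water. In such tissue samples, fewer cells of a type and less RNA per cell cannot be told apart. Because TCQA 2 and water 1 stood apart, values without each are given beside the main differences of the members. They bear only on what sets 1 of these arrays apart. A difference shared by both arrays of a group, such as that of choroid plexus, stays in place.

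Stc2 had log2 signals of 4.81 and 4.96 on the TCQA arrays and of 3.79 and 3.64 on the water arrays. The groups did not overlap, and the lowest TCQA value exceeded the highest water value by 1.02. Replicates were 0.15 apart in each group, and the difference of the means was 1.17 (SE 0.19 in limma's moderated model, n = 2 per group). The gap between the groups was thus larger than the spread within either. Leaving out 1 array at a time left it between 1.10 and 1.25, with 1.10 without TCQA 2 and 1.25 without water 1. The signal was dim, however, since 7.72% of the negative control probe sets and 16.6% of named transcript clusters had a lower mean.

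The sensors of the response were next examined. Ern1 signals were 8.83 and 9.57 in TCQA and 9.31 and 9.10 in water, with the TCQA arrays on either side of both water arrays. Its group means were equal to within -0.0014 (SE 0.28), but leaving out TCQA 1 gave 0.37, leaving out TCQA 2 gave -0.37 and leaving out water 1 gave 0.10. Eif2ak3, the PERK kinase, was at 10.39 and 10.55 in TCQA against 10.28 and 10.25 in water. Both TCQA arrays were above both water arrays by a small margin, and the difference of 0.20 (SE 0.19) was about the size of its own error, with 0.13 without TCQA 2 and 0.22 without water 1. Atf6 lay at 12.72 and 12.57 in TCQA and at 12.56 and 12.72 in water. These 4 values interleaved, with a difference of 0.010 (SE 0.19), whose sign turned with quantile normalisation, with median centring and without TCQA 1. It was 0.085 without TCQA 2 and -0.071 without water 1.

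Among the transcription factors that the sensors act through, Xbp1 and Atf4 had differences of opposite sign. Xbp1, the target of IRE1 splicing and a factor for ER chaperone and degradation genes, had 12.56 and 12.71 in TCQA and 12.26 and 12.35 in water. The groups were apart without overlap, and the difference was 0.33 (SE 0.19), or 1.25-fold. It remained positive in all settings tried, from 0.25 without TCQA 2 to 0.40 without TCQA 1, and was 0.28 without water 1. Atf4, the factor of the PERK arm, measured 10.96 and 11.23 in TCQA against 11.30 and 11.56 in water. All TCQA values were again on 1 side, here the lower one, though the closest pair was 0.075 apart and replicates differed by 0.27 and 0.26. Its difference was -0.34 (SE 0.21), with -0.47 without TCQA 2 and -0.47 without water 1. Since Atf4 is regulated chiefly at translation, its mRNA level need not follow its protein.

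Ddit3, which encodes CHOP, a factor induced downstream of ATF4, varied more between replicates than between groups. Its signals were 9.36 and 8.84 with TCQA and 9.90 and 9.09 with water. Water 1 was the highest array, and water 2 fell between the TCQA arrays. The difference of -0.39 (SE 0.33) came to 0.012 without water 1, to -0.13 without TCQA 2 and to -0.80 without water 2. The second Ddit3 transcript cluster, at 8.72 and 8.63 in TCQA and 8.83 and 8.58 in water, differed by -0.032 (SE 0.20). Ppp1r15a, or GADD34, the subunit that directs a phosphatase to eIF2 and so ends the PERK signal, had 4.21 and 3.96 in TCQA and 4.20 and 4.04 in water. Those values overlapped and lay near the floor of the array, with 5.92% of negative controls lower, and their difference was -0.037 (SE 0.20). Quantile normalisation turned its sign, as did leaving out TCQA 2 (0.088) or water 1 (0.041).

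Herpud1 and Sdf2l1 act at the ER membrane or in its lumen. The first, an ER membrane protein that organises the degradation of misfolded proteins, had 12.25 and 12.24 in TCQA and 12.42 and 12.02 in water. The TCQA arrays fell between the water arrays, and the difference was 0.020 (SE 0.22). It was -0.040 after quantile normalisation, 0.027 without TCQA 2, 0.22 without water 1 and -0.18 without water 2. Sdf2l1, a lumenal protein that binds the cochaperone Dnajb11 and keeps folding clients soluble, was measured at 6.47 and 6.37 in TCQA and at 7.25 and 6.79 in water. Both TCQA arrays were below both water arrays, and water 1 was the highest. The difference was -0.60 (SE 0.22), with -0.55 without TCQA 2, -0.37 without water 1 and -0.83 without water 2. Sdf2l1 lay below the negative control median but not as far into the range of the negative controls as Stc2. That is no comparison of how strongly the 2 genes are expressed. Of the negative controls 44.8% were lower, and of named transcript clusters 47.5%, against 7.72% and 16.6% for Stc2.

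**Figure D2:**
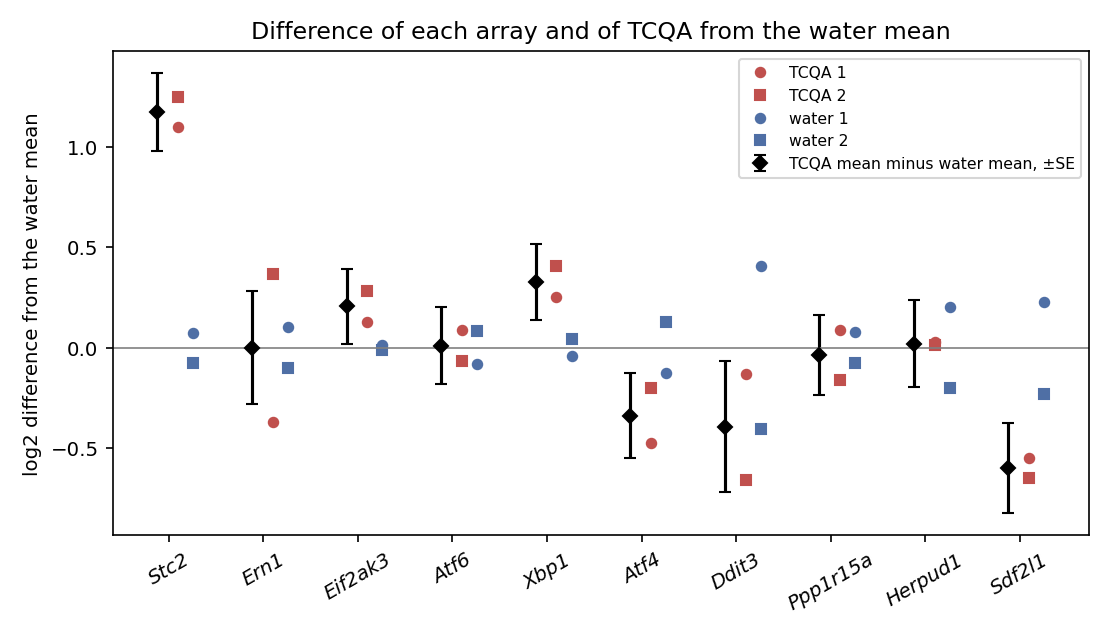
Log2 difference from the water mean (y axis) for each of the 10 genes (x axis), with each array as a coloured point and the TCQA minus water difference as a black diamond with its SE from limma. Stc2 lies at 1.17 with both TCQA points far from the water points, Ern1 has its TCQA points on either side of 0, and Ddit3 has water points as far apart as 0.81.

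By the study's criteria, an unadjusted p under 0.05 with over 2-fold change, 1 of the 10 genes was called, Stc2, where 0.664% of all transcript clusters were (130 of 19572; 0.245% higher in TCQA and 0.419% lower). An unadjusted p under 0.05 was reached by 2 members, Stc2 and Sdf2l1, against 7.37% of all. Groups did not overlap for 3 members higher in TCQA and 2 lower, against 19.9% and 19.2% of all transcript clusters. Because the same contrast was known when the list was drawn up, these shares are set side by side and nothing is read from them. Benjamini-Hochberg adjustment in limma left 0 of 19572 transcript clusters under 0.05 (the smallest adjusted p was 0.642). The filter on dim signals removed Stc2. Sdf2l1 lost its unadjusted p under 0.05, among others, without TCQA 1 (-0.65), TCQA 2 (-0.55) or water 1 (-0.37).

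**Figure D3:**
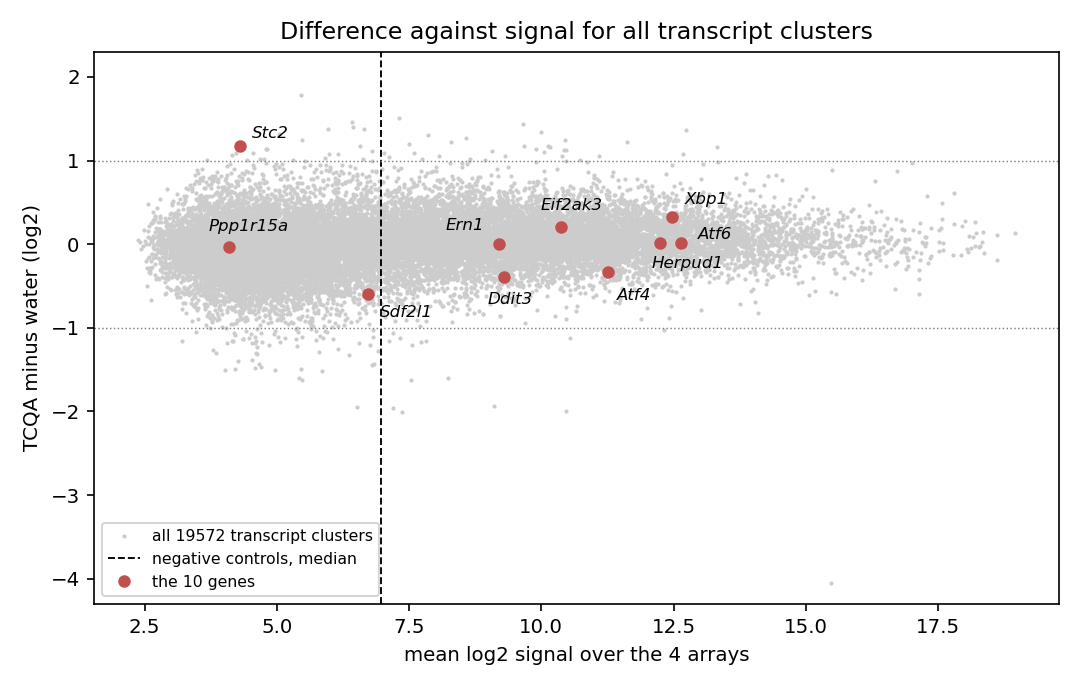
TCQA minus water difference on the log2 scale (y axis) against the mean log2 signal over the 4 arrays (x axis) for 19572 transcript clusters in grey and the 10 genes in red, with the negative control median as a dashed line and 2-fold change as dotted lines. Stc2 is above the upper dotted line on the dim side, and the other 9 genes are between the dotted lines.

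Profiles of Stc2, Sdf2l1 and Ddit3 were set beside those of markers of other tissue and of vessels. Sdf2l1 and Ddit3 were highest on water 1, as were the choroid plexus, striatal, myelin, thalamic, astrocyte and microglial lists. The thalamic list mean was 9.17 on water 1 against 8.23 to 8.77 on the other arrays, the astrocyte mean 12.91 against 12.66 to 12.83 and the microglial mean 8.94 against 8.49 to 8.76. For choroid plexus markers 8 of 9 were lower in TCQA and 4 of 9 had means below the negative control median, for striatal markers 8 of 8 were lower and 0 were below it, and for myelin markers 7 of 9 were lower and 0 were below it. The counts lower in TCQA were 6 of 8 for thalamus with 2 below the negative control median, 6 of 8 for astrocytes with 0 and 7 of 7 for microglia with 2. Stc2 was higher on both TCQA arrays, and so were the endothelial and inhibitory neuron lists. In the endothelial list, 7 of 8 markers were higher and 2 of 8 below the negative control median, with list means of 9.34 and 9.46 in TCQA and 9.13 and 9.17 in water. In the inhibitory neuron list, 5 of 8 markers were higher and 0 below that median, with list means of 10.90 and 11.21 in TCQA and 10.82 and 10.78 in water. The part of these markers in the levels of the members was not tested. Median differences were -1.05 for choroid plexus and ependyma, -0.70 for striatum, -0.30 for myelin and 0.29 for endothelium. They were 0.29 for excitatory neurons, 0.17 for inhibitory neurons, 0.89 for olfactory bulb and -0.59 for thalamus. For hippocampus the median was -0.054, for microglia -0.12, for astrocytes -0.21 and for meninges 0.11. The study's criteria were met by 5 of 9 choroid plexus markers, against 0.664% of all transcript clusters. They were also met by 1 of 9 excitatory neuron markers and 1 of 8 thalamic markers.

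**Figure D4:**
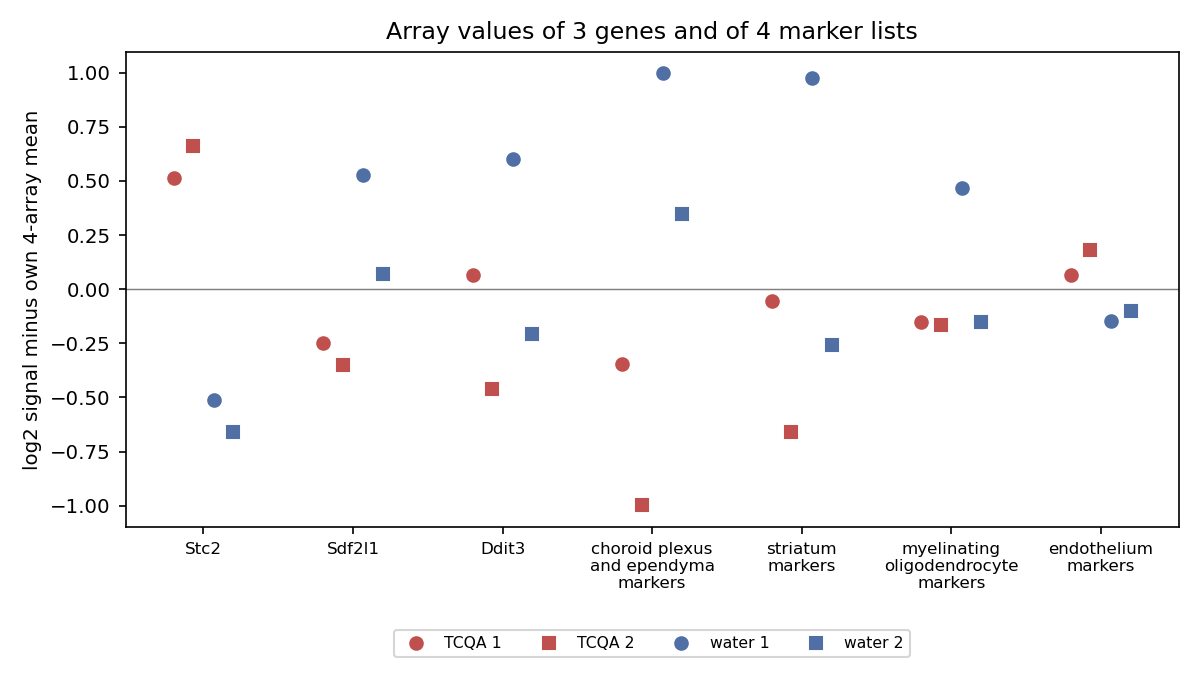
Log2 signal minus its own mean over the 4 arrays (y axis) for Stc2, Sdf2l1, Ddit3 and the means of 4 marker lists (x axis), each point 1 array. Water 1 is the highest point for Sdf2l1, Ddit3 and the choroid plexus, striatum and myelin lists, whereas for Stc2 and the endothelial list both TCQA points are above both water points.

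To see which genes had a pattern like that of Stc2, deviations from the own 4-array mean were compared over the 4 arrays among 9974 genes of at least median brightness in 1 group. The nearest by root mean square distance were Ksr1, a scaffold of the ERK cascade, at 0.040, Mr1, an antigen-presenting molecule for microbial metabolites, at 0.065, Med16, a Mediator subunit, at 0.072, Fn1, the matrix protein fibronectin, at 0.077, and Gpr107, a Golgi membrane protein, at 0.098. Ksr1 had 10.50 and 10.71 in TCQA and 9.57 and 9.42 in water, a difference of 1.11 (SE 0.20). Differences of the other 4 ran from 1.00 for Gpr107 to 1.22 for Med16. Since these genes were picked for nearness to the profile of Stc2, differences close to its 1.17 follow from that choice. Mr1 passed the brightness filter through its TCQA signals alone, 7.34 and 7.39 against 6.26 and 6.24 in water, with the limit at 7.01. With 4 arrays, many genes can share a pattern. Within the pathway, the member nearest to Stc2 was Xbp1, at a distance of 0.43, followed by Eif2ak3 at 0.49, and the farthest was Sdf2l1 at 0.90. This distance depends on the size and sign of the group difference, so the order largely restates the differences given above.

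The 7 further lists held the wider machinery of the response, 148 genes of which 138 were measured under their listed symbols. In limma 6 of these 138 had an unadjusted p under 0.05, or 4.35%, against 7.37% of all transcript clusters, 5 of them higher in TCQA and 1 lower. These compare with 3.48% and 3.89% of all transcript clusters in the same directions. In limma 0 of the 138 met the study's criteria, and 0 had an adjusted p under 0.05 by limma or by the ordinary linear model, which gave 12 with an unadjusted p under 0.05. In the 138, 82 differences were above 0 and 56 below, with a median of 0.075. Over all transcript clusters 50.5% of differences were above 0, with a median of 0.0028. Groups did not overlap for 39 higher and 18 lower genes, or 28.3% and 13.0%, against 19.9% and 19.2% of all transcript clusters. Signals were below the negative control median for 26 of the 138, against 9675 of all 19505 genes with a symbol. Without water 1 the count of 6 became 3, and without TCQA 2 it was 6. Of the genes named from these lists, 22 missed the unadjusted threshold. Among them the difference of 17 turned sign or moved by over 1.5 times when 1 array was left out, and 3 (Traf2, Pappa and Igfbp4) turned sign. Among the 6 that passed, Orai2 (0.38 to 0.80) and Ssr3 (0.33 to 0.72) also moved by over 1.5 times.

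**Figure D5:**
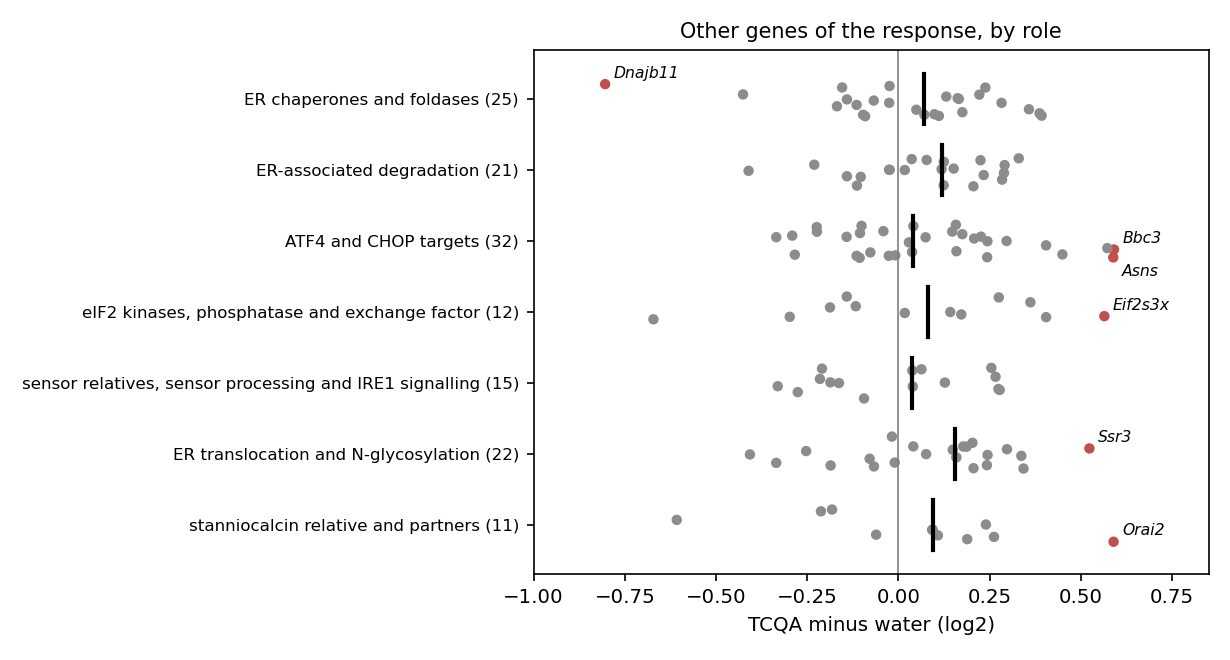
TCQA minus water difference on the log2 scale (x axis) for each measured gene of the 7 lists (rows, with the number of genes), where red points have an unadjusted p under 0.05 in limma and black bars are list medians. The 6 red points are Dnajb11 on the left and Asns, Bbc3, Eif2s3x, Ssr3 and Orai2 on the right, and the medians lie between 0.038 and 0.15.

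ER chaperones and foldases, which fold new secretory proteins, were measured for 25 of 27 genes, 14 higher and 11 lower with a median of 0.071. The unadjusted threshold was passed by 1 of the 25 (4%), against 7.37% of all transcript clusters. Dnajb11, the HSP40 cochaperone of BiP that pairs with Sdf2l1, had 7.86 and 7.94 in TCQA against 8.76 and 8.64 in water. All 4 values kept to their side with replicates within 0.12 of each other, a difference of -0.80 (SE 0.19), 1.75-fold lower in 2 of 2 TCQA arrays (limma adjusted p = 0.642). It kept an unadjusted p under 0.05 in 12 of 12 settings, between -0.86 and -0.75. P4hb, a disulfide isomerase, differed by -0.43 and Erp44, which retains client proteins in the early secretory pathway, by 0.39. Hspa5, or BiP, the chaperone that holds the sensors inactive, had 15.40 and 15.79 in TCQA against 15.22 and 15.25 in water. Its TCQA values were higher without overlap, but the difference of 0.36 (SE 0.21; limma adjusted p = 0.708) was uneven, with TCQA 1 only 0.15 above water 2, and was 0.16 without TCQA 2 and 0.55 without TCQA 1.

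The promoter elements allowed the lists to be read by sequence. An ERSE was found in 8 of the 22 chaperone and foldase genes that had a promoter window, or 36.4%, against 0.113% of all windows. Here and for the C/EBP-ATF core, a share of genes is set beside a share of windows, which are unlike units. With Syvn1 and Derl3 of the degradation list, 10 listed genes had an ERSE, 8 higher in TCQA and 2 lower. Groups did not overlap for only 2 of the 8 higher genes and for both lower ones. Over all transcript clusters those shares were 19.9% and 19.2%. The median difference of these 10 genes was 0.10, with a range from -0.23 (Derl3) to 0.36 (Hspa5). In limma 0 of the 10 had an unadjusted p under 0.05, against 7.37% of all transcript clusters. Hsp90b1, the ER form of HSP90, differed by 0.13, Calr, calreticulin, by 0.071 and Canx, calnexin, by -0.14. The C/EBP-ATF core was present in 8 of 25 ATF4 and CHOP targets with a window, or 32%, against 3.45% of all windows. Over all lists 11 genes had it, 6 higher and 5 lower with a median of 0.074. An unadjusted p under 0.05 in limma was reached by 2 of the 11, Asns and Eif2s3x, against the same 7.37% of all. Atf3, a stress-induced factor with this core, differed by -0.28 (SE 0.32) and was highest on water 1, at 8.83 against 7.92 to 8.23 on the other arrays. The UPRE core was held by 5 listed genes, 2 higher and 3 lower.

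ATF4 and CHOP targets, which supply amino acids and antioxidants or promote cell death, were measured for 32 of 34 genes, 18 higher and 14 lower with a median of 0.039, and 10 of the 32 lay below the negative control median. Of the 32, 2 (6.25%) passed the unadjusted threshold, both higher, against 7.37% of all transcript clusters. Asns, which makes asparagine, had 13.93 and 14.12 in TCQA and 13.44 and 13.43 in water. The groups were 0.49 apart at their closest, and the difference was 0.59 (SE 0.19), higher in 2 of 2 arrays (limma adjusted p = 0.673). Asns lost the unadjusted threshold without TCQA 2 (0.49), water 1 (0.59) or water 2 (0.58). Bbc3, or PUMA, a promoter of apoptosis that is also a p53 target, had 6.66 and 6.50 in TCQA against 6.07 and 5.90 in water, all below the negative control median. Its difference was 0.59 (SE 0.19; limma adjusted p = 0.673), and it lost the unadjusted threshold without TCQA 1 (0.51) or water 2 (0.50). Wars, a tryptophan aminoacyl-tRNA synthetase, differed by 0.57 without passing, with 0.26 without TCQA 2 and 0.88 without TCQA 1. Sesn2, a stress-induced regulator of mTORC1 signalling, differed by 0.45 without passing, and its signals of 3.33 to 4.04 lay below the negative control median.

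In the eIF2 group, 7 of 12 measured genes were higher and 5 lower. Eif2s3x, the X-linked gamma subunit of eIF2, had 13.74 and 13.83 in TCQA and 13.11 and 13.33 in water. Both TCQA arrays were above both water arrays, with a difference of 0.56 (SE 0.19; limma adjusted p = 0.673). It lost the unadjusted threshold without TCQA 1 (0.61), TCQA 2 (0.52) or water 1 (0.45). Eif2ak2, the double-stranded RNA kinase PKR, differed by -0.67 (SE 0.28) without passing, with 6.07 on TCQA 1 and 6.84 to 7.15 on the other arrays, and by -0.29 without TCQA 1. Ppp1r15b, the constitutive partner of the eIF2 phosphatase, differed by 0.36 and Eif2b1, of the exchange factor, by 0.40.

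The remaining groups held few calls, where 7.37% of all transcript clusters had an unadjusted p under 0.05 in limma. ER-associated degradation, which returns misfolded proteins to the cytosol, had 14 of 21 measured genes higher and 7 lower, a median of 0.12 and 0 genes under the unadjusted threshold in limma. Its 4 smallest p-values belonged to Edem2, Ufd1, Vcp and Faf2. Edem2, a mannosidase family protein, differed by -0.41. Ufd1 (0.29) and Vcp (0.33) are of the extraction machinery, and Faf2 (0.29) recruits it. Sensor relatives and IRE1 signalling genes, 15 measured, were 8 higher and 7 lower, again with 0 under it; Map3k5, the stress kinase ASK1, differed by -0.33, Rtcb, the ligase that joins spliced Xbp1, by 0.28, Tmbim6, an ER calcium channel-like protein, by 0.27 and Traf2, an IRE1 adaptor, by -0.28. Without TCQA 2, Tmbim6 was at 0.062 and Traf2 at 0.032. Translocation and N-glycosylation genes, which bring proteins into the ER, were 14 higher and 8 lower of 22 with a median of 0.15. Ssr3, a subunit of the translocon-associated complex, had 12.91 and 12.76 in TCQA against 12.50 and 12.12 in water, a difference of 0.52 (SE 0.22; limma adjusted p = 0.673). It kept the unadjusted threshold in 5 of 12 settings. Dad1, of the oligosaccharyltransferase, differed by -0.41, Sec61a1, the channel itself, by 0.34 and Ssr1 by 0.34.

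Relatives and partners of Stc2 were the last group. Stc1, the other mammalian stanniocalcin, was at 6.71 and 6.73 in TCQA and at 7.11 and 6.46 in water. Its values overlapped, with a difference of -0.061 (SE 0.26). Orai2, a pore subunit of store-operated calcium entry, was the 1 of 11 genes (9.09%) under the unadjusted threshold, against 7.37% of all transcript clusters. It had 6.38 and 5.96 in TCQA against 5.64 and 5.53 in water, below the negative control median on all arrays, and a difference of 0.59 (SE 0.22; limma adjusted p = 0.673). That threshold was kept in 5 of 11 settings. Pappa, the protease that Stc2 inhibits, stood at 3.93 on TCQA 1 and at 5.24 to 5.38 on the other arrays, a difference of -0.61 (SE 0.44) that was 0.12 without TCQA 1. Orai3 and Igfbp4, a substrate of that protease, differed by 0.26 and 0.24. Orai3 was at 0.11 without water 2, and Igfbp4 at -0.016 without water 1 and 0.50 without water 2.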

How the data were processed

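Levels were taken from Clariom S mouse arrays, 2 of the TCQA and 2 of the water group, hybridised from 100 ng of RNA each. The deposited values are log2 signals that the authors computed by signal space transformation RMA with the software Transcriptome Analysis Console 4.0.2, per the labels' design text. Their genome build was not used here. Arrays have no sequencing depth, and their number limits the precision. The medians of named transcript clusters lay between 6.98 on water 2 and 7.04 on TCQA 2. The authors' filters on detection, which need probe-level data, were not applied.

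From these values, 19572 transcript clusters with 1 symbol in the platform annotation (of 28846 rows) were fitted with limma 3.58.1 in R 4.3.3 (lmFit and eBayes, 2-sided, no block), with Benjamini-Hochberg adjustment of p over this whole set. The model was tested on simulated arrays, and the motif search on a made-up string with known matches to the CCACG box only. Members, gene lists and marker lists were chosen with earlier results of these data known. Named genes are the 10 members, the 4 smallest p-values of each of the 7 pathway lists, the 5 genes nearest to Stc2, and markers given beside a result; Stc1, Atf3, Hsp90b1, Calr, Canx, Derl3 and Syvn1, outside that rule, were named after their values were seen. Promoter sequences are RefSeq's on GRCm38.p6. Alternatives covered the prior, scaling, dim signals, duplicate symbols, the replicate number as a block and the omission of single arrays. Figures used matplotlib 3.10.9.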

Additional observations from a re-analysis of the deposited data

How the results depend on the processing

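Counts of calls depended on the model. Without the empirical Bayes step, 55 transcript clusters met the study's criteria in place of 130, and 12 of the 138 listed pathway genes had an unadjusted p under 0.05 in place of 6. A prior with a trend on signal gave 11 of the 138, and the filter on dim signals left 56 transcript clusters past the criteria and removed Stc2 and Ppp1r15a. Leaving out 1 array gave 218 to 428 transcript clusters and 3 to 6 listed genes, the lone array of a group being assumed to vary like the other group. The median of the 10 members stayed between -0.11 and 0.071 in those fits. The sign of the difference turned in at least 1 alternative for 5 members, Atf6, Ppp1r15a, Herpud1, Ern1 and Ddit3. Among the other 5, Stc2 ranged from 1.10 to 1.25, Xbp1 from 0.25 to 0.40, Eif2ak3 from 0.12 to 0.28, Atf4 from -0.47 to -0.20 and Sdf2l1 from -0.83 to -0.37.

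The replicate block gave 130 transcript clusters and 8 listed genes. The labels do not say whether arrays with the same replicate number share a batch. Replicate 1 deviations of both groups correlated with r = -0.0032 across genes. No listed gene had more than 1 row, so that alternative bore only on Ddit3 (-0.21). Signals below the negative control median limit what can be said of Stc2, Sdf2l1 and Ppp1r15a.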
